A study of Nicotiana tabacum with 8 samples.

Results

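The difference between genotypes in the response to salt was measured for every expressed gene of tobacco (*Nicotiana tabacum*) leaves. For each gene, the salt effect in the *NtCBL5A*-overexpressing line OE-2 (S-OE2 minus C-OE2) was taken on the log2 scale, and the salt effect in wild type (S-WT minus C-WT) was subtracted from it. This double difference is called the interaction here. It was computed within each of 2 independent experiments and then joined as their mean, and 44564 of the 81378 genes in the table had enough reads to be tested. A positive interaction means that the log2 change under salt was higher in OE-2 than in WT, and a negative interaction that it was lower.

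The 8 RNA-seq libraries formed 4 groups of 2, with 1 library per group in each experiment and 4 plants pooled per library. S-OE2 was OE-2 under 100 mM NaCl, C-OE2 was OE-2 in nutrient solution without added NaCl, S-WT was wild-type cultivar Zhongyan 100 under 100 mM NaCl, and C-WT was wild type without added NaCl. OE-2 is a single homozygous line that carries *NtCBL5A* behind the constitutive 35S promoter, so a property of the line and an effect of the gene cannot be told apart. All libraries came from the blade of leaf 5 without its main veins, after 4 days of treatment, at about 34 days after germination. The first day of salt was at a lower concentration. Replicates were the 2 experiments, and the experiment was a term of the fit. Unless another model is named, each p-value below rests on how far group differences varied between experiments. A gene's general difference in level between experiments is taken out, and each gene's spread borrows from that of all genes.

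CBL proteins are calcium sensors that bind CIPK protein kinases, and in *Arabidopsis* the best known pair drives sodium export at the plasma membrane. High NaCl brings osmotic stress first and ion toxicity later, and leaves commonly respond with lower transcript levels of the photosynthetic apparatus. Pathogenesis-related (PR) proteins are secreted or vacuolar defense proteins that accumulate during the hypersensitive response, a form of local cell death best known from pathogen attack.

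Each library held between 18674594 and 31672013 counts in total, and the scaling factors that correct for library composition (TMM) from 0.755 to 1.37. The 12 photosynthesis genes listed below held 1.14% to 3.36% of all counts in each library, as leaf tissue should show. Libraries of one group differed far beyond counting noise, with a chi-square of 59.2 to 121 per degree of freedom. The interaction of any gene rests on the WT salt response as much as on that of OE-2, and the WT response differed between experiments. Across genes, the salt effect in Experiment 1 and that in Experiment 2 had a Pearson r of 0.718 in OE-2 and 0.16 in WT. These correlations describe 44564 genes, which are not independent replicates. *Nitab4.5_0007367g0040* had no count in any WT library and 482 and 376 CPM (counts scaled to the size and composition of the library) in S-OE2, against 688 and 550 CPM in C-OE2. With WT at 0 in both treatments, no difference between salt responses can be read for it, and it was chosen by that pattern. The identifier of *NtCBL5A* was not matched here.

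The distribution of the interaction over all genes centred on 0 and was wide. The joined interaction had a median of -0.03, a 5th percentile of -1.29 and a 95th percentile of 1.59, with 48.1% of genes above 0. Its tails were unequal: 1579 genes lay above 2 and 605 below -2, and the 99th percentile was 3.65 against a 1st percentile of -2.15. This inequality differed by level of expression. The 5th and 95th percentiles were -1.86 and 2.77 for genes with a mean below 1 CPM, and -1.14 and 1.34 at 1 to 10 CPM. They were -0.89 and 0.85 at 10 to 100 CPM, and -1.48 and 0.85 above 100 CPM. Within Experiment 1 the standard deviation over genes was 1.19 and the median -0.02. Within Experiment 2 the standard deviation was 1.14 and the median -0.04. Both experiments had the longer tail on the positive side, with a 99th percentile of 3.64 in Experiment 1 and 4.55 in Experiment 2, against 1st percentiles of -3.25 and -2.36. The salt effect itself, joined over experiments, had a standard deviation over genes of 1.10 in OE-2 and 0.628 in WT. Within Experiments 1 and 2 it was 1.28 and 1.10 in OE-2, against 0.941 and 0.695 in WT. In bulk tissue, fewer cells of a type and less RNA per cell cannot be told apart, and this holds for every value below.

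**Figure D1:**
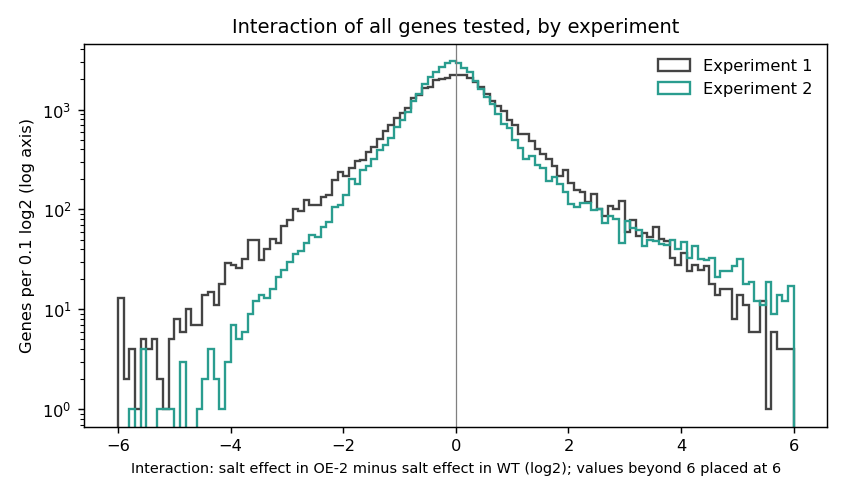
Number of genes (log axis, per 0.1 log2) by the interaction, the salt effect in OE-2 minus that in WT, for 44564 genes in Experiment 1 and in Experiment 2; values beyond 6 in size are placed at 6. Both curves centre near 0 (medians of -0.02 and -0.04) and reach farther on the positive side, to 99th percentiles of 3.64 and 4.55.

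How far the experiments shared the interaction depended on its size. Over all genes, 60% (26726) had the same sign in both experiments: 28.2% were positive in both and 31.8% negative in both. Of the 4903 genes over 1 in size in both experiments, 74.6% had the same sign, and of the 1159 genes over 2 in size in both, 87.7% did. An interaction above 1 in both experiments was found for 2172 genes (4.87% of those tested), and one below -1 in both for 1487 (3.34%). Opposite signs over 1 in size were found for 592 genes that were positive in Experiment 1 and for 652 that were negative there. Beyond 2 in both, 857 genes were positive and 160 negative. Pearson's r between the experiments' interactions was 0.349 across genes and Spearman's rho 0.277. The standard deviation over genes of the mean of both experiments was 0.958, and that of their half-difference, a measure of the disagreement, was 0.666.

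**Figure D2:**
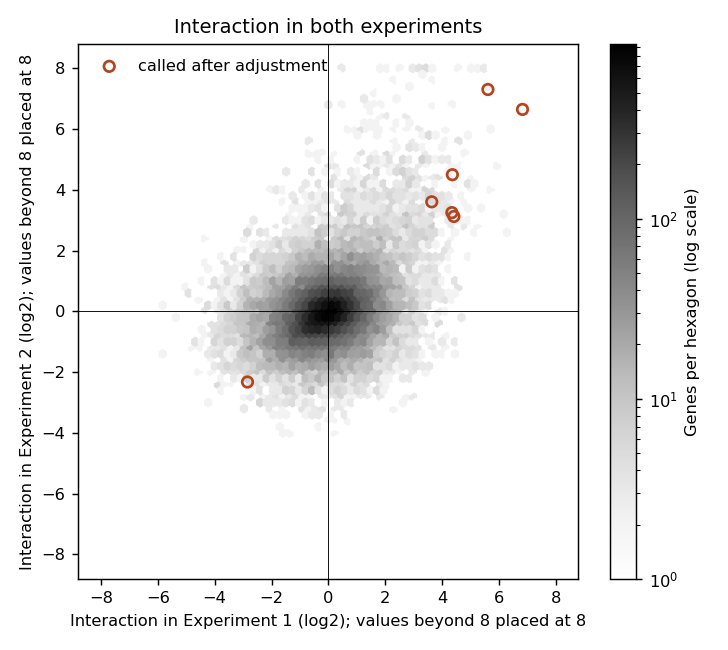
Interaction in Experiment 1 (x axis, log2) and in Experiment 2 (y axis, log2) for 44564 genes, as counts per hexagon on a log scale with values beyond 8 placed at 8; circles are the 7 genes called after adjustment. The cloud is broad around 0 (r = 0.349) and its arm in the upper right quadrant holds the 857 genes above 2 in both experiments.

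The interaction of one experiment could be set against the salt effects of the other, which share no library with it. The interaction in Experiment 2 correlated across genes with the salt effect of Experiment 1 at r = 0.556 for OE-2 and r = 0.313 for WT. The interaction in Experiment 1 correlated with the salt effect of Experiment 2 at r = 0.432 for OE-2 and r = 0.11 for WT. In both directions, the genes with a higher interaction had also risen more in OE-2 in the other experiment. The WT salt effect had a positive r with the interaction of the other experiment, although it enters the interaction of its own experiment with a minus sign.

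After adjustment over all 44564 genes, edgeR's quasi-likelihood test called 7 interactions (0.0157% of genes), 6 positive (0.0135%) and 1 negative (0.00224%), at a Benjamini-Hochberg adjusted p below 0.05. An unadjusted p below 0.05 was found for 4389 genes (9.85%), 1975 positive (4.43%) and 2414 negative (5.42%). Below 0.01 there were 1459 genes (3.27%), 722 positive (1.62%) and 737 negative (1.65%). DESeq2 on the same libraries called 399 positive (1.06%) and 421 negative (1.12%) of the 37494 genes to which it gave an adjusted p, all 7 of edgeR's calls among them. With a block extended by salt by experiment and genotype by experiment, which leaves 1 residual degree of freedom in place of 3, edgeR called 532 positive (1.19%) and 548 negative (1.23%) genes, again with the 7. The 7 calls were lost when any control library was left out: without the first or the second C-OE2 library, or without the second C-WT library, edgeR called 0 genes, with 1509 to 1956 positive and 1589 to 2394 negative genes at an unadjusted p below 0.05. Without the first C-WT library it called 8 other genes, and without the first S-OE2 library 5 of the 7. Without the first S-WT library it called 175 positive and 11 negative genes, and without the second S-OE2 library 32 and 45, the 7 among them in both cases. The split between directions also depended on scaling: by total counts, 3152 positive and 1374 negative genes had an unadjusted p below 0.05. Under that scaling the median interaction over all genes was 0.18, with median salt effects of 0.49 in OE-2 and 0.29 in WT.

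The 7 called genes carry identifiers without descriptions in the deposited table, and their functions are not given here. Coordinates are those of the table, on the Nitab4.5 scaffolds. In 4 of the 7, the salt effect joined over experiments was above 1 in OE-2 and below -1 in WT. The other calls comprised a gene above 1 in both genotypes, a gene below -1 in WT alone and a gene below -1 in both. The WT salt effect was negative in both experiments in 6 of the 7 genes. It was called on its own in 3 of them, beside 0.0494% of all genes called as falling in WT. The salt effect in OE-2 was called in 6, beside 5.73% of all genes called as rising and 6.18% as falling.

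*Nitab4.5_0000032g0520* (scaffold Nitab4.5_0000032, 2566071 to 2566784, minus strand) had 107 and 66.2 CPM in S-OE2 in Experiments 1 and 2, against 0.311 and 0.242 CPM in C-OE2. In S-WT it had 1.32 and 0.418 CPM, against 0.497 and 0.162 CPM in C-WT. The transcript was thus near 0 in 6 libraries and abundant in both S-OE2 libraries. Its interaction was 6.83 in Experiment 1 and 6.65 in Experiment 2, and the fitted value 6.81 ± 0.70 (SE; adjusted p = 0.0324, edgeR's quasi-likelihood test).

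*Nitab4.5_0003983g0070* (scaffold Nitab4.5_0003983, 229694 to 230149, minus strand) had 10.9 and 10.2 CPM in S-OE2, against 0.466 and 0.212 CPM in C-OE2. It had 0.453 and 0.114 CPM in S-WT, against 1.21 and 0.767 CPM in C-WT. S-OE2 stood above all other libraries while S-WT lay below C-WT in each experiment, and the fitted interaction was 6.89 ± 0.68 (SE; adjusted p = 0.0324, edgeR's quasi-likelihood test). *Nitab4.5_0000363g0010* (scaffold Nitab4.5_0000363, 64183 to 65138, minus strand) was also highest in S-OE2, with 41.1 and 22.6 CPM in S-OE2 against 3.47 and 3.39 CPM in C-OE2. Its WT values were 4.61 and 1.79 CPM in S-WT, against 8.23 and 6.34 CPM in C-WT. The interaction was 4.37 and 4.5 in the 2 experiments, and the fitted value 4.40 ± 0.45 (SE; adjusted p = 0.0324, edgeR's quasi-likelihood test).

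*Nitab4.5_0000032g0460* (scaffold Nitab4.5_0000032, 2344079 to 2344966, minus strand) had 362 and 281 CPM in S-OE2, against 60.6 and 51.0 CPM in C-OE2. In WT it had 28.1 and 35.3 CPM in S-WT, against 96.2 and 61.1 CPM in C-WT. It was well expressed in all 8 libraries, so its opposite responses did not rest on counts near 0, and the fitted interaction was 3.79 ± 0.36 (SE; adjusted p = 0.0315, edgeR's quasi-likelihood test). *Nitab4.5_0000312g0300* (scaffold Nitab4.5_0000312, 874008 to 874400, minus strand) had 150 and 29.1 CPM in S-OE2 against 47.1 and 16.5 CPM in C-OE2, and 11.7 and 3.72 CPM in S-WT against 78.9 and 18.7 CPM in C-WT. Its level was lower in Experiment 2 in every group, but the order of the groups was the same in both. The fitted interaction was 3.81 ± 0.36 (SE; adjusted p = 0.0315, edgeR's quasi-likelihood test).

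*Nitab4.5_0004430g0020* (scaffold Nitab4.5_0004430, 17024 to 17422, minus strand) differed from these in its small salt effect in OE-2. It had 182 and 55.7 CPM in S-OE2 and 163 and 36.9 CPM in C-OE2, against 22.5 and 8.28 CPM in S-WT and 252 and 67.5 CPM in C-WT. The salt effect was 0.37 in OE-2 (adjusted p = 0.327) and -3.25 in WT (adjusted p = 0.00976, edgeR's quasi-likelihood test), so its fitted interaction of 3.62 ± 0.31 (SE; adjusted p = 0.0315) went with a fall in WT. *Nitab4.5_0029285g0010* (scaffold Nitab4.5_0029285, 1198 to 2728, plus strand) was the negative call. It had 46.5 and 0.427 CPM in S-OE2 against 1252 and 10.01 CPM in C-OE2, and 445 and 3.72 CPM in S-WT against 1660 and 15.1 CPM in C-WT. Its level differed by a large factor between experiments in every group, while the fall under salt was steeper in OE-2 both times, and the fitted interaction was -2.71 ± 0.29 (SE; adjusted p = 0.0335, edgeR's quasi-likelihood test).

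**Figure D3:**
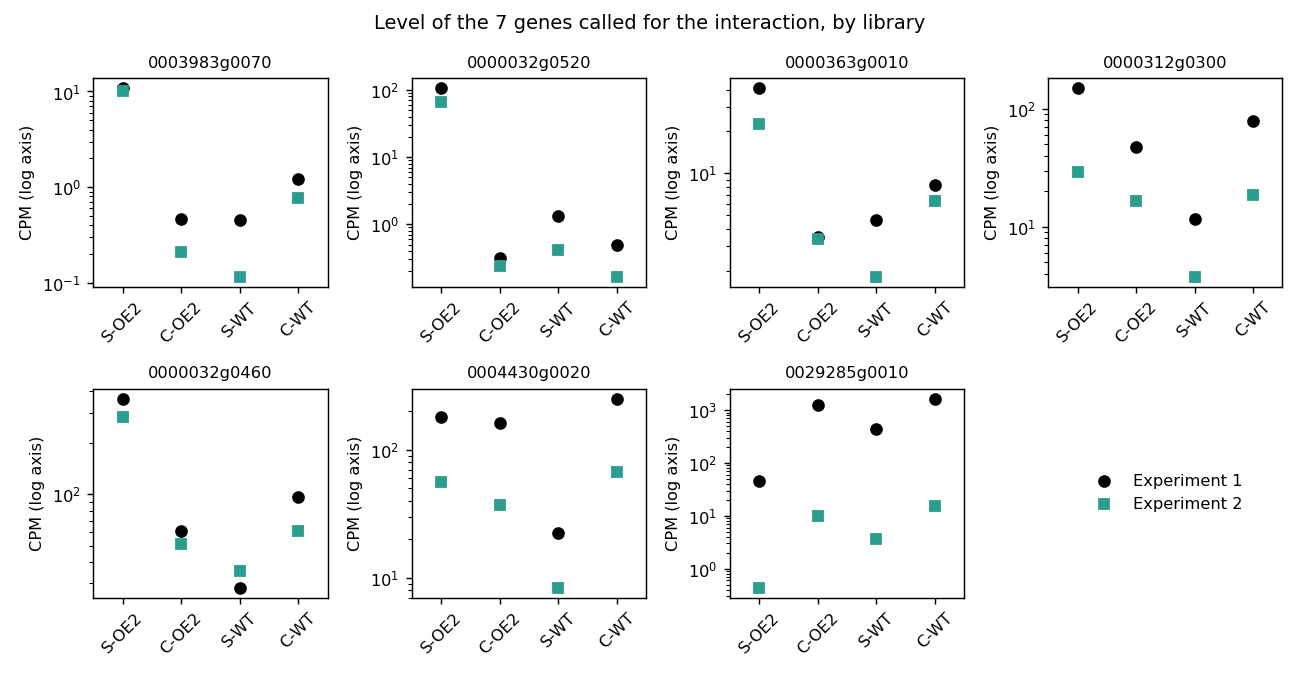
CPM (log axis) in each library of the 7 genes called for the interaction, with groups in the order S-OE2, C-OE2, S-WT, C-WT; circles are Experiment 1 and squares Experiment 2. S-OE2 lies above C-OE2 in all panels but that of *Nitab4.5_0029285g0010*, and S-WT below C-WT in all but that of *Nitab4.5_0000032g0520*; *Nitab4.5_0004430g0020* has its large change in WT (22.5 and 8.28 CPM in S-WT, against 252 and 67.5 CPM in C-WT), and *Nitab4.5_0029285g0010* falls in both genotypes.

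The next genes in order of p missed the threshold narrowly, and were chosen after their values were seen. Of these, 6 had an adjusted p of 0.0511 to 0.0516 in edgeR's quasi-likelihood test, 3 positive and 3 negative. DESeq2 called all 6, beside 1.06% of all genes as positive and 1.12% as negative. The 6 were picked by edgeR's p and DESeq2 used the same libraries, so this is no separate support. *Nitab4.5_0008277g0010* had 8.09 and 32.5 CPM in S-OE2 against 75.4 and 305 CPM in C-OE2, but 106 and 229 CPM in S-WT against 87.5 and 317 CPM in C-WT, with a fitted interaction of -3.16. *Nitab4.5_0004728g0030* had 53.8 and 59.8 CPM in S-OE2 against 514 and 392 CPM in C-OE2, and 426 and 398 CPM in S-WT against 595 and 561 CPM in C-WT (-2.50). Both were lower in S-OE2 than in any other group. *Nitab4.5_0004136g0010* had 1270 and 662 CPM in S-OE2 against 64.9 and 65.9 CPM in C-OE2, and 146 and 87.7 CPM in S-WT against 87.3 and 55.9 CPM in C-WT (3.09). The other members of this group were *Nitab4.5_0003983g0030* (2.96), *Nitab4.5_0000871g0040* (-3.20) and *Nitab4.5_0000363g0120* (3.38). *Nitab4.5_0003983g0030* shares a scaffold and a length of 456 bases with the called *Nitab4.5_0003983g0070*, so reads could be split between them if the copies are near-identical.

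The shape of the salt responses behind the interaction was followed in the genes with an unadjusted p below 0.05 and the same sign in both experiments. Among the 1966 positive genes, 1080 (54.9%) had a salt effect of at least 1 in OE-2 and under 1 in size in WT. A value of at least 1 in OE-2 with one of -1 or less in WT was found for 113 genes (5.75%), against 0.298% of all genes. At least 1 in both genotypes was found for 174 genes, -1 or less in WT alone for 105 and under 1 in size in both for 488. Among the 2393 negative genes, 1430 (59.8%) were at -1 or less in OE-2 alone, 129 in both genotypes, 151 were at 1 or more in WT alone and 70 were at -1 or less in OE-2 and at 1 or more in WT. Over all genes tested, 7.06% were up in OE-2 alone and 7.57% down in OE-2 alone by these limits. The p and these classes used the same libraries, so the shares describe the genes and test nothing. By total counts, 2129 positive genes were up in OE-2 alone and 715 negative genes down in OE-2 alone.

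The positive genes had a median salt effect of 1.45 in OE-2 and -0.07 in WT. Their median difference between genotypes was 1.44 under salt, OE-2 over WT, and -0.20 under control conditions. The negative genes had a median salt effect of -1.30 in OE-2 and -0.13 in WT, and a median difference between genotypes of -1.10 under salt and 0.05 under control conditions. In both sets the median difference between genotypes was smaller in size without added NaCl than with it. The negative genes were also more abundant, with a median of 10.5 CPM over the 8 libraries, against 4.38 CPM for all genes tested. The positive genes had a median of 5.25 CPM. Newly assembled gene models made up 9.66% of the positive and 10.1% of the negative genes, against 14.4% of all genes tested.

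The interaction changed with the level of expression, and its clearest shift was in the most abundant transcripts. Of the 1310 genes above 100 CPM, 410 (31.3%) were negative and 67 (5.11%) positive at an unadjusted p below 0.05, against 5.42% and 4.43% of all genes. Their median interaction was -0.47, and 84.8% had the same sign in both experiments (r = 0.771 across these genes). The class was set by the mean over all 8 libraries, S-OE2 among them. It thus also holds genes that are high mainly in S-OE2, such as *PR1a* and *PR-Q* (means of 1613 and 1429 CPM). Their large positive interactions enter this r, and their part in it was not tested. In the classes below 1, 1 to 10 and 10 to 100 CPM, between 2.94% and 6.62% of genes passed in each direction, and 57.1% to 64.0% had the same sign. By total counts the median of the abundant genes was -0.26 and that of all genes 0.18. A change of scaling moves all genes by nearly the same amount, so the distance between these medians tests nothing. By total counts, 278 negative and 93 positive abundant genes passed, of 1374 negative and 3152 positive among all 44564 genes. Without the experiment as a block, 85 negative and 31 positive abundant genes passed, of 929 negative and 981 positive among all genes. The genes above 100 CPM held 47.0% and 42.6% of all counts in S-OE2, against 65.1% and 55.7% in C-OE2, 59.5% and 50.9% in S-WT and 66.3% and 57.9% in C-WT. The part of this shift of the counts in the interaction was not tested.

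**Figure D4:**
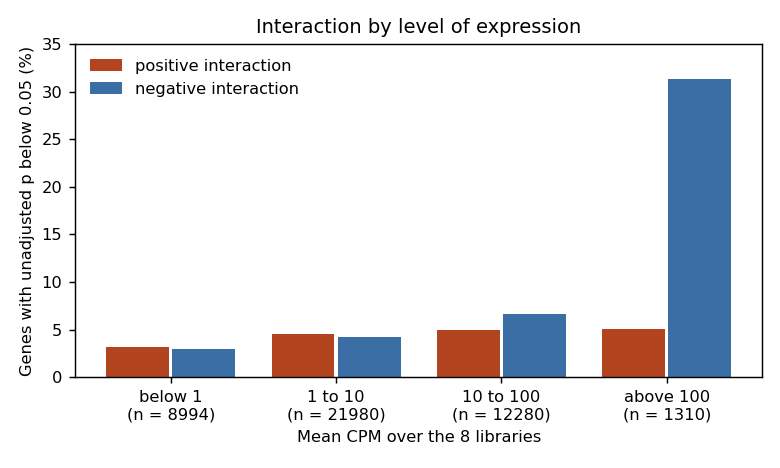
Share of genes (%) with an unadjusted interaction p below 0.05, positive and negative, in 4 classes of mean CPM over the 8 libraries; n is the number of genes in a class. The classes up to 100 CPM lie between 2.94% and 6.62% in each direction, while 31.3% of the genes above 100 CPM were negative and 5.11% positive.

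The 10 most abundant transcripts were all negative in both experiments, with fitted interactions of -1.43 to -0.70. edgeR's quasi-likelihood test called 0 of them (adjusted p of 0.187 to 0.550), 9 had an unadjusted p below 0.05 (5.42% of all genes and 31.3% of those above 100 CPM were negative at this p), and DESeq2 called 6 (1.12% of all genes in this direction). The most abundant, a newly assembled gene model without a gene name, had 8139 and 6857 CPM in S-OE2 against 26720 and 19880 CPM in C-OE2. It had 25500 and 15280 CPM in S-WT against 30640 and 23850 CPM in C-WT. Both S-OE2 libraries thus lay well below the 6 others, and the fitted interaction was -1.18 ± 0.30 (SE; adjusted p = 0.221, edgeR's quasi-likelihood test). For *Nitab4.5_0003337g0010*, with the strongest negative value of the 10 (-1.43), S-OE2 had 1070 and 1704 CPM against 6471 and 5743 CPM in C-OE2, and S-WT had 4272 and 4062 CPM against 7405 and 6266 CPM in C-WT. The salt effect in OE-2 was called for all 10, beside 6.18% of all genes called as falling, and that in WT for 0, beside 0.0494%.

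The 12 photosynthesis genes with identifiers in the study, most of which it picked on these samples, had one direction. All 12 had a negative interaction in both experiments, with a median of -1.19 (-1.39 in Experiment 1 and -0.93 in Experiment 2), against -0.04 for all genes tested. The 12 had a mean of 575.5 to 4263 CPM, and genes above 100 CPM had a median joined interaction of -0.47. None was called by edgeR's quasi-likelihood test. All 12 had an unadjusted p below 0.05 (5.42% of all genes and 31.3% of those above 100 CPM in this direction). DESeq2 called 10, beside 1.12% of all genes in this direction. With the extended block edgeR called 8 of the 12, beside 1.23%. The median salt effect was -1.75 in OE-2, called for all 12 (6.18% of all genes were called as falling). In WT it was -0.61, called for 0 (0.0494%), although all 12 were negative in both WT experiments. Summed over the list, the level was 12100 and 8306 CPM in S-OE2 against 42850 and 24060 CPM in C-OE2, and 32280 and 17570 CPM in S-WT against 44480 and 27940 CPM in C-WT. The response was therefore in the same direction in both genotypes and larger in OE-2.

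Within photosystem I, *PsaH*, a core subunit where the antenna of photosystem II can dock, had 234 and 132 CPM in S-OE2 against 1053 and 488 CPM in C-OE2. It had 693 and 340 CPM in S-WT against 1112 and 552 CPM in C-WT, and its interaction was -1.34 ± 0.27 (SE; adjusted p = 0.154, edgeR's quasi-likelihood test). *PsaE* and *PsaD*, subunits on the stromal side where ferredoxin binds, had fitted values of -1.23 and -1.20. In photosystem II, *PsbQ*, an oxygen-evolving protein, had 1510 and 1061 CPM in S-OE2 against 5004 and 3090 CPM in C-OE2, and 4475 and 2333 CPM in S-WT against 4729 and 3607 CPM in C-WT. Its interaction was -1.28 ± 0.30 (SE). *OEE1*, which stabilizes the oxygen-evolving manganese cluster, and *PsbX*, a small membrane subunit, had -1.31 and -1.07. The subunits of both photosystems thus had interactions of similar size.

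Among the light-harvesting antenna proteins, which carry chlorophyll, *Lhcb3* had the strongest interaction of the list (-1.91 ± 0.46; adjusted p = 0.196, edgeR's quasi-likelihood test). It had 625 and 51.4 CPM in S-OE2 against 3819 and 581 CPM in C-OE2, and 3010 and 296 CPM in S-WT against 4158 and 944 CPM in C-WT. Its WT salt effect was -0.47 in Experiment 1 and -1.67 in Experiment 2. *Lhcb4* had an interaction of -1.19 and *Lhca3*, an antenna protein of photosystem I, -0.95. Outside the photosystems, the Calvin cycle enzyme gene *GAPA* had -0.99, the chloroplast ATP synthase delta subunit -0.87 and ferredoxin (*Fd*), the electron carrier after photosystem I, -0.68.

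The 12 defense genes had the opposite direction and larger values. Of these, 10 were picked by the study on these samples, and *NRP* and *HSR203J* are markers of the hypersensitive response from earlier work. All 12 were above 1 in both experiments, against 4.87% of all genes, with a median fitted interaction of 4.60 (2.78 in Experiment 1 and 7.20 in Experiment 2). edgeR's quasi-likelihood test called 0, and 10 had an unadjusted p below 0.05 (4.43% of all genes in this direction). DESeq2 called 6, beside 1.06% of all genes in this direction. With the extended block edgeR called 10 of the 12, all but *PR1b* and *RIN4*, beside 1.19%. The salt effect was called for 11 of 12 in OE-2 (5.73% of all genes were called as rising) and for 0 in WT (0.0381%). The summed level was 23910 and 15250 CPM in S-OE2 against 1140 and 721 CPM in C-OE2, and 1293 and 567 CPM in S-WT against 793 and 868 CPM in C-WT. The S-OE2 libraries thus stood far above every other library.

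The acidic PR genes of tobacco set the size of that sum, and in WT they differed between experiments. *PR1a*, a classical marker of salicylic acid signalling, had 7664 and 5054 CPM in S-OE2 against 0.207 and 0.363 CPM in C-OE2. In WT it had 184 and 0.646 CPM in S-WT against 0 and 1.90 CPM in C-WT. WT under salt therefore carried *PR1a* in Experiment 1 and hardly in Experiment 2, and the interaction was 3.49 in Experiment 1 and 14.94 in Experiment 2. With a count of 0 in one C-WT library, the value for Experiment 1 depends on the prior count and is no bound. The same held for *PR1b*, with 64.0 and 0 CPM in S-WT, and *PR1c*, with 11.7 and 0 CPM in S-WT. These genes had unadjusted p of 0.111 and 0.176, the only 2 of the list that did not pass 0.05. *PR1a*, *PR1b* and *PR1c* are close relatives, and how reads shared between copies were counted is not given in the sources used here.

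*PR-Q*, an acidic chitinase, had 7146 and 3985 CPM in S-OE2 against 2.38 and 3.30 CPM in C-OE2, and 286 and 4.37 CPM in S-WT against 3.05 and 4.44 CPM in C-WT. The thaumatin-like *PR-R* major form had 2502 and 1693 CPM in S-OE2 against 1.92 and 2.54 CPM in C-OE2, and 78.1 and 1.67 CPM in S-WT against 2.63 and 4.16 CPM in C-WT. Their fitted interactions were 6.17 ± 1.79 and 6.81 ± 1.68 (SE; adjusted p = 0.272 and 0.203, edgeR's quasi-likelihood test), and that of the *PR-R* minor form 7.34 ± 1.63 (adjusted p = 0.171). In all of these PR genes, the S-WT library of Experiment 1 was far above that of Experiment 2. Leaving that library out gave a list median of 7.59, and leaving out the second C-WT library one of 1.81. The part of the S-WT libraries' difference in the result was not tested.

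The markers of the hypersensitive response and the signalling genes had smaller interactions than the PR genes. *NRP* (N-rich protein) had 373 and 243 CPM in S-OE2 against 36.3 and 40.6 CPM in C-OE2, and 50.2 and 57.4 CPM in S-WT against 19.5 and 29.6 CPM in C-WT. Its interaction was 2.00 and 1.63, fitted 1.88 ± 0.39 (SE; adjusted p = 0.157, edgeR's quasi-likelihood test). *HSR203J*, whose product is an esterase, had 68.9 and 70.3 CPM in S-OE2 against 18.1 and 15.5 CPM in C-OE2, and 11.8 and 15.4 CPM in S-WT against 6.18 and 9.09 CPM in C-WT, with a fitted value of 1.22. Both markers had a positive salt effect in both WT experiments too, smaller than in OE-2. The ethylene response factor *ERF1* had the lowest p of the 28 listed genes: 12.1 and 3.85 CPM in S-OE2 against 1.09 and 0.363 CPM in C-OE2, and 3.42 and 0.684 CPM in S-WT against 1.70 and 0.606 CPM in C-WT, with 2.77 ± 0.50 (adjusted p = 0.133).

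*EDS1*, a lipase-like regulator of salicylic acid-dependent immunity, had an interaction of 1.02 and 1.94, and *RIN4*, a plasma membrane protein guarded by immune receptors in *Arabidopsis*, 1.41 and 4.84. *RIN4* had 13.6 and 8.09 CPM in S-OE2, against 1.29 and 0.575 CPM in C-OE2, and 3.13 and 0.380 CPM in S-WT, against 0.781 and 0.969 CPM in C-WT. The catalase gene *CAT1*, whose enzyme breaks down hydrogen peroxide, was unlike the rest because it was abundant in every library. It had 1653 and 1340 CPM in S-OE2 against 1070 and 652 CPM in C-OE2, and 560 and 479 CPM in S-WT against 752 and 811 CPM in C-WT. Its interaction of 1.42 ± 0.33 combined salt effects of 0.82 in OE-2 and -0.61 in WT, neither of which was called (adjusted p = 0.0517 and 0.456, edgeR's quasi-likelihood test).

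**Figure D5:**
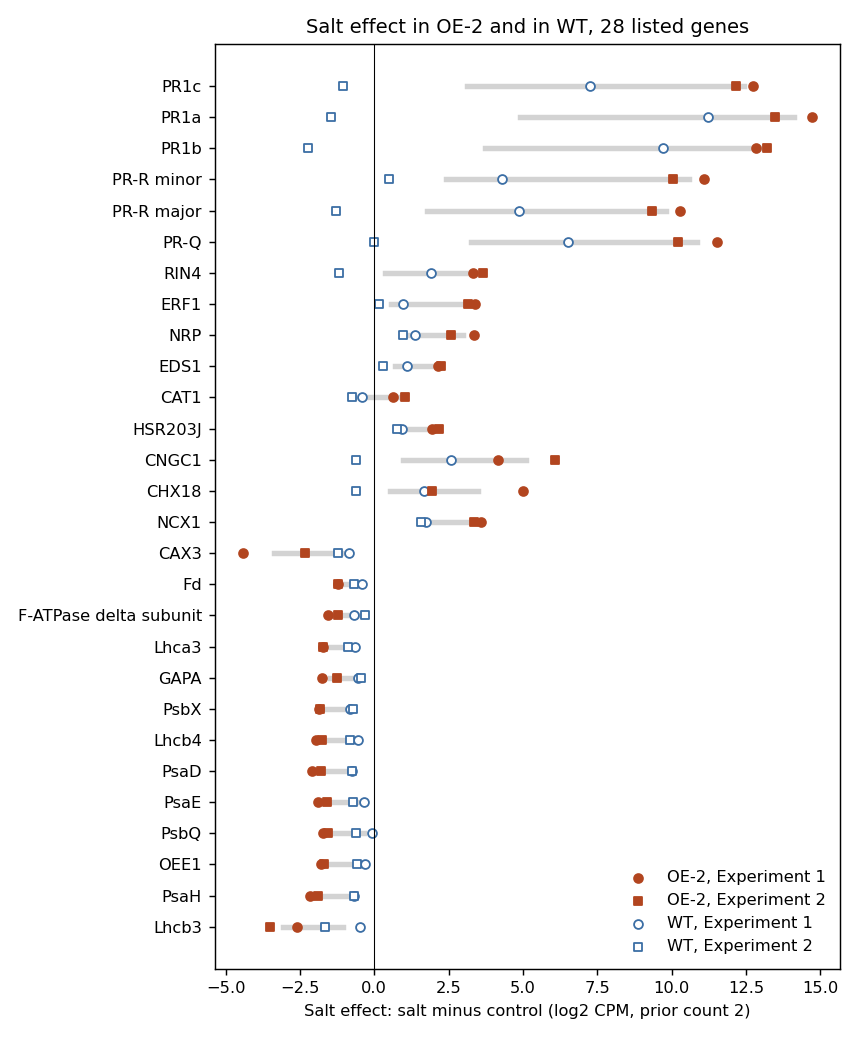
Salt effect (log2 CPM, salt minus control) of the 28 listed genes in OE-2 (filled) and in WT (open), with circles for Experiment 1, squares for Experiment 2 and a grey bar between the genotypes' means. The 12 defense genes at the top lie farther right in OE-2 in both experiments, with open circles and squares of the PR genes far apart, and the 12 photosynthesis genes at the bottom lie farther left in OE-2.

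The 4 cation transport genes, also picked by the study on these samples, did not share a direction. In all, 3 were positive in both experiments and *CAX3* was negative, with a median of 1.97. edgeR's quasi-likelihood test called 0, and 2 had an unadjusted p below 0.05 (9.85% of all genes). DESeq2 called 2 of the 3 to which it gave an adjusted p, beside 2.19% of all genes. With the extended block edgeR called *CAX3* alone, beside 1.23% of all genes in this direction. *CAX3*, a vacuolar cation/proton exchanger in *Arabidopsis*, had 2.25 and 6.93 CPM in S-OE2 against 49.5 and 35.4 CPM in C-OE2, and 27.6 and 21.3 CPM in S-WT against 50.0 and 49.3 CPM in C-WT. Its salt effect was negative in both genotypes, called in OE-2 and not in WT, with an interaction of -2.23 ± 0.61 (SE; adjusted p = 0.252, edgeR's quasi-likelihood test). That interaction was -3.56 in Experiment 1 and -1.13 in Experiment 2, and leaving out each library gave -3.31 (without the second S-OE2 library, where it was called) to -1.41 (without the first). *NCX1*, named as a sodium/calcium exchanger, had 15.8 and 9.46 CPM in S-OE2 against 1.24 and 0.847 CPM in C-OE2, and 4.44 and 2.66 CPM in S-WT against 1.28 and 0.848 CPM in C-WT. Its interaction was alike in both experiments (1.85 and 1.80; adjusted p = 0.158).

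*CNGC1*, a cyclic nucleotide-gated channel gene, and *CHX18*, a cation/proton exchanger gene, rested on few counts in WT. *CNGC1* had 21.4 and 27.4 CPM in S-OE2 against 1.14 and 0.333 CPM in C-OE2, and 3.33 and 0 CPM in S-WT against 0.497 and 0.0404 CPM in C-WT. As with the PR genes, its interaction was smaller in Experiment 1 (1.57) than in Experiment 2 (6.68), and its unadjusted p was 0.167. *CHX18* had at most 2.40 CPM in any library and an unadjusted p of 0.523 (adjusted p = 0.912, edgeR's quasi-likelihood test), and its fitted value was -0.93 without the second C-WT library, against 2.08 with it.

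The strongest positive interactions that held in both experiments came from genes that were rare outside S-OE2. A set of 8 was taken by the smaller of their 2 experiments' values among genes with an unadjusted p below 0.01 and one sign, and this choice fixes their direction. Their counts were 158 to 36803 in the S-OE2 libraries and at most 679 in any other library. *Nitab4.5_0000625g0070* had 133 and 28.3 CPM in S-OE2 against 0 and 0 CPM in C-OE2, and 1.89 and 0.114 CPM in S-WT against 0.568 and 0 CPM in C-WT. *Nitab4.5_0012523g0010* had 84.2 and 34.6 CPM in S-OE2 against 0.0518 and 0.0605 CPM in C-OE2, and 7.53 and 0.342 CPM in S-WT against 0.710 and 0.485 CPM in C-WT. The second of these repeats the pattern of the PR genes, with S-WT far higher in Experiment 1. The other members were the *PR-R* minor form, *Nitab4.5_0000032g0520*, *Nitab4.5_0000194g0120*, *Nitab4.5_0003324g0100*, *Nitab4.5_0002401g0010* and a newly assembled model. Their salt effect in OE-2 was called for all 8, beside 5.73% of all genes called as rising, and that in WT for 0, beside 0.0381%.

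The strongest negative interactions by the same choice were of another kind. All 8 genes were rare, with a mean of 0.233 to 0.831 CPM and a highest count of 63 in any library, and 5 had a count of 0 in at least 1 S-OE2 library. One of them, a newly assembled model, had 0 and 0 CPM in S-OE2 against 0.414 and 0.847 CPM in C-OE2, and 0.988 and 0.532 CPM in S-WT against 0.071 and 0.283 CPM in C-WT. *Nitab4.5_0005371g0010* had 0.0876 and 0.0916 CPM in S-OE2 against 1.5 and 0.786 CPM in C-OE2, and 0.535 and 0.380 CPM in S-WT against 0.284 and 0.121 CPM in C-WT. In 7 of the 8 the salt effect was positive in both WT experiments, and in 7 negative in both OE-2 experiments. The genes were chosen for a negative interaction in both experiments, so these signs are partly built in, and they rest on few counts. edgeR's quasi-likelihood test called 0 of the 8 (adjusted p of 0.158 to 0.289), all 8 having been chosen at an unadjusted p below 0.01, and DESeq2 called the 1 gene of the 8 to which it gave an adjusted p. The other members were *Nitab4.5_0001435g0060*, *Nitab4.5_0002053g0090*, *Nitab4.5_0000241g0240*, *Nitab4.5_0000171g0350* and other newly assembled models.

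At the other end, 4 genes were taken for large interactions of opposite sign in the 2 experiments. A newly assembled model had an interaction of -7.06 in Experiment 1 and 5.82 in Experiment 2, with 0.789 and 2.32 CPM in S-OE2 against 7.14 and 1.78 CPM in C-OE2, and 4.57 and 0.0760 CPM in S-WT against 0.213 and 6.62 CPM in C-WT. *Nitab4.5_0000130g0130* had -3.71 and 4.53, with 75.2 and 25.5 CPM in S-OE2 and 16.6 and 2.15 CPM in C-OE2, against 17.0 and 0.988 CPM in S-WT and 0.213 and 2.06 CPM in C-WT. In both genes the WT salt effect was positive in Experiment 1 and negative in Experiment 2, opposite to the interaction. *Nitab4.5_0000215g0030* (4.40 and -2.40) and another newly assembled model (3.17 and -3.39) were positive in Experiment 1, where their WT salt effects were -1.98 and -5.00. The WT salt effect enters the interaction with a minus sign, and the genes were chosen for the interaction's signs. Opposite signs of the 2 values are therefore partly built in. The unadjusted p of the 4 was 0.477 to 0.842.

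The interactions of neighbouring genes were weakly correlated. Neighbouring tested genes at most 5000 bases apart had joined interactions that correlated at r = 0.09 over 8774 pairs, those 5000 to 50000 bases apart at 0.11 over 13324 pairs, and those farther apart at 0.06 over 9448 pairs. In the same order, 6, 20 and 10 pairs had both genes at an unadjusted p below 0.01 with the same sign. With opposite signs there were 2, 8 and 9 such pairs. Whether genes with a strong interaction lie together was not tested. One scaffold was singled out after its values were seen. On Nitab4.5_0000032, 5 of 21 tested genes (23.8%) had an unadjusted p below 0.01, all positive, against 1.62% of all genes in this direction. Other scaffolds had more such genes or a higher share: Nitab4.5_0000040 had 6 of 43 (14%), of which 2 were positive and 4 negative, Nitab4.5_0000829 had 4 of 15 (26.7%) and Nitab4.5_0002053 had 4 of 11 (36.4%). Of the 5 on Nitab4.5_0000032, 4 lay within 222.7 kb (2344079 to 2566784) and were the only tested genes of the 7 in the table there. Besides the called *Nitab4.5_0000032g0460* and *Nitab4.5_0000032g0520*, they were *Nitab4.5_0000032g0480*, with 16.9 and 14.6 CPM in S-OE2 against 0.207 and 0.514 CPM in C-OE2, and 0.700 and 0.0760 CPM in S-WT against 0.852 and 0.121 CPM in C-WT, and *Nitab4.5_0000032g0470*. The last had 13.3 and 8.03 CPM in S-OE2 against 0.207 and 0.121 CPM in C-OE2, and 0.535 and 0.380 CPM in S-WT against 0 and 0.202 CPM in C-WT. All 4 were highest in both S-OE2 libraries. *Nitab4.5_0000032g0460* and *Nitab4.5_0000032g0480* are both 888 bases long, and reads could be split between them if they are near-identical copies. The fifth gene, *Nitab4.5_0000032g0030*, lay outside this window and had an interaction of 1.24.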

How the data were processed

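Reads were aligned with HISAT2 2.0.5, assembled with StringTie 1.3.3b and counted with featureCounts 1.5.0-p3 by the authors, as the submitters' processing notes name them. The handling of multi-mapping reads and of strand is not given in the sources used here. The authors deposited raw counts per gene, which were used, and FPKM values, which were not. The table's identifiers come without descriptions, so functional lists planned from keywords were not applied.

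Counts were filtered with filterByExpr, scaled with TMM and tested in edgeR 4.0.16 (R 4.3.3, limma 3.58.1) with the quasi-likelihood test, group and experiment as terms and Benjamini-Hochberg adjustment over all genes. The SE is the absolute log2 value over the square root of F and is approximate. Values per experiment are log2 CPM with a prior count of 2. DESeq2 1.42.0 was an alternative, with no filter, a mean of at least 50 counts, total-count scaling, other blocks, a prior of 0.5 and leaving out each library. The code was tested on simulated data. The study compared groups within independent experiments, so the experiment pairs the libraries, and libraries of one experiment deviated together (r of 0.383 to 0.517 over 6 pairs of groups).

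The genes named were the 28 with identifiers in the study, all calls, the 8 largest in each direction by the smaller experiment's value (unadjusted p below 0.01, one sign), the 10 most abundant, 4 with opposite signs and 1 with no WT count. Genes and lists were chosen with earlier results of these data known.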

Additional observations from a re-analysis of the deposited data

Results flagged for a closer look

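In 7 genes the difference between the genotypes' salt responses itself was called after adjustment by edgeR's quasi-likelihood test, with the same sign in both experiments. The fitted interactions were 6.81 for *Nitab4.5_0000032g0520*, 3.79 for *Nitab4.5_0000032g0460*, 3.62 for *Nitab4.5_0004430g0020*, 3.81 for *Nitab4.5_0000312g0300*, 6.89 for *Nitab4.5_0003983g0070* and 4.40 for *Nitab4.5_0000363g0010*. The interaction of *Nitab4.5_0029285g0010* was -2.71.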

How the results depend on the processing

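With 2 libraries per group, the number of calls depended on single libraries and on the model. Most named genes kept their sign, but most were chosen on these same libraries, so this does not test their directions. Calls were 6 positive and 1 negative as reported, and 226 and 131 with no filter, 36 and 6 by total counts, 399 and 421 with DESeq2, and 0 and 0 where a mean count of 50 or more was required (1520 positive and 1801 negative genes at an unadjusted p below 0.05). Leaving out each library gave 0 to 175 positive and 0 to 45 negative calls. The 7 genes were all called in the first 3 of these settings. At an unadjusted p below 0.05 the counts were 3152 and 1374 by total counts, and leaving out each library gave 1509 to 2039 positive and 1526 to 2710 negative genes. The negative count was 1589 without the first C-OE2 and 1526 without the first S-OE2 library.

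Without the replicate block for the experiment, edgeR called 0 positive and 0 negative genes (smallest adjusted p = 0.811), and 981 and 929 had an unadjusted p below 0.05. With the block extended by salt by experiment and genotype by experiment, it called 532 and 548, the 7 genes among them. Of the abundant genes, 31 positive and 85 negative passed without the block and 101 positive and 614 negative with the extended one. Among all genes, 2548 positive and 3470 negative passed with the extended block. Leaving out each library gave 42 to 80 positive (42 without the second C-WT and 43 without the first C-OE2 library) and 294 to 445 negative abundant genes. These counts of abundant genes and the patterns by total counts (2129 up and 715 down in OE-2 alone) were added after seeing the data.

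The median interaction was 0.18 by total counts and -0.0039 by DESeq2's size factors, and -0.0672 to -0.00867 without each library. The 5th percentile was -1.87 in Experiment 1 alone, -1.01 for genes with a mean count of 50 or more, and -2.03 to -1.43 without each library. The 95th percentile was 1.80 by total counts, 1.78 with a prior count of 0.5, 1.06 for genes with a mean count of 50 or more, 1.95 and 1.92 in Experiments 1 and 2 alone, and 1.73 to 2.13 without each library. The medians and percentiles without each library are those of fitted values, because an experiment that lacks a library has no double difference. They are another measure than the joined values, so their distance from these does not show a dependence on single libraries. Without each library, list medians were 1.81 to 7.59 for defense, -1.29 to -1.09 for photosynthesis and 0.43 (second C-WT) to 4.12 (first S-WT) for cation transport.

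The sign turned without the second C-WT library for *CHX18* (-0.93, with 7.81 as the highest value without any 1 library) and *Nitab4.5_0000032g0470* (-0.92, highest 5.19). It also turned for the genes taken for opposite signs. *Nitab4.5_0000215g0030* ranged over -1.03 to 3.41, with -1.03 and -0.83 without the first S-WT and first S-OE2 library. *Nitab4.5_0000130g0130* was -0.45 without the block and ranged over -2.89 to 3.10, with -0.14 without the second S-WT library. One newly assembled model ranged over -4.14 to 3.97 (0.62, 3.97 and 0.13 without the first C-OE2, second S-WT and second S-OE2 library), and the other over -4.45 to 3.68 (2.00, 0.11, 3.68 and 1.43 without each library of Experiment 1). The biological coefficient of variation was 24.2%.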
